A study of Mus musculus with 9 samples.

Results

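Arginase genes and other genes associated with suppressive, tissue-repair type macrophages were followed in whole NB9464 tumors by RNA-seq. Nos2, which the paper counts as pro-inflammatory, was followed with them. The set was chosen by name and held 10 genes (Arg1, Arg2, Nos2, Mrc1, Cd163, Chil3, Retnla, Il10, Trem2 and Msr1) among the 54429 gene symbols of the count table. NB9464 is a MYCN-amplified mouse neuroblastoma line. For every group, 4000000 cells were implanted subcutaneously in WT C57BL/6 mice, and treatment began at a tumor volume of 250 mm3. There were 3 groups of 3 tumors, namely vehicle, the drug pair R788 + anti-PDL1, and the same pair with radiation (Rad + R788 + anti-PDL1), the last of which is called irradiated below. R788 (fostamatinib) is the prodrug of a Syk kinase inhibitor and was given at 50 mg/kg, 5 times a week, anti-PDL1 was antibody clone 10F.9G2 given 4 times a week, and radiation (Rad) was 10 Gy. The series text lists 4 doses from day 28 to day 37 without naming the agents. All tumors came from a single line, no single-agent arm was analysed here, and the labels give no age or sex and do not say whether a tumor was pooled from several mice. The comparisons address whether the drug combination, with or without radiation, was accompanied by different levels of these genes in established tumors.

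Macrophages share a pool of arginine between enzymes that lead to different products. Arginase 1 converts arginine to ornithine and urea and lowers the arginine available to T cells, whereas inducible nitric oxide synthase, encoded by Nos2, makes nitric oxide from the same substrate. In mouse macrophages IL-4 and IL-13 act through STAT6 to induce Arg1, Retnla, Chil3 and Mrc1, while IFN gamma and microbial products induce Nos2. Cd163, Msr1, Mrc1 and Trem2 encode surface receptors for scavenged ligands, and Trem2 signals through the adaptor Tyrobp (DAP12) to Syk.

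The libraries held 18276683 to 23397886 counts, and values are given as CPM, counts brought to a common library size with TMM factors, in the order of replicates 1 to 3. A count of 0 allows up to 3 counts, or 0.115 to 0.221 CPM depending on the library, and such limits cover counting error only. Irradiated replicate 1 stood apart, with a TMM factor of 0.743, 1.97% of counts from mitochondrial genes against 3.48% to 5.71% in the other libraries, and the highest value of all libraries at 30.4% of the genes tested and the lowest at 35.6%. Another feature was a library lying between the others of its group. R788 + anti-PDL1 replicate 3 was the middle value at 91.8% of the 352 genes for which replicates 1 and 2 differed more than 4-fold, and vehicle replicate 3 at 87.7% of 220 such genes. The same measure was 65.4% and 64.9% for irradiated replicates 2 and 3 and 34.2% to 45.2% for the remaining libraries. Whether these libraries share material with the others of their group was not tested. The SDs, SEs and p-values below count each library as a separate tumor and would be too small if they did. Without both libraries edgeR called 0 genes in each comparison, with an unadjusted p-value under 0.05 for 701, 736 and 896 genes. Of the neuroblast markers, Th had no count in any tumor and Dbh, Chga and Phox2a had at most 3, whereas Mycn was at 93.3 to 250.3 CPM and Hand2 at 325 to 867 CPM. All 14 macrophage identity genes examined were present in the whole-tumor libraries. Because the tissue was not sorted, fewer macrophages and less RNA of a gene per macrophage cannot be told apart.

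Of the 10 genes, 8 passed the low-count filter, and Arg2 and Il10 did not. With edgeR, 0 of the 8 differed in any comparison at an adjusted p-value under 0.05, where 0.678% of the 15931 genes tested were called in R788 + anti-PDL1 against vehicle, 0.0439% in irradiated tumors against vehicle and 0.00628% in irradiated tumors against R788 + anti-PDL1. An unadjusted p-value under 0.05 was obtained for Nos2 and Retnla in the first comparison, for Arg1 and Nos2 in the second and for Arg1 in the third, against 11.7%, 13.2% and 18.4% of all genes. A log2 difference above 0 was found for 5, 4 and 3 of the 8, and for 48.4%, 52.9% and 52.5% of all genes. Other tools made a call in 2 instances. DESeq2 called Arg1 between irradiated and vehicle tumors (adjusted p = 0.034, log2 difference -3.15), and limma-voom with sample quality weights called Nos2 between R788 + anti-PDL1 and vehicle tumors (adjusted p = 0.00459, log2 difference -2.17). In those comparisons DESeq2 called 611 and limma-voom 4831 of the 15931 genes tested. The groups did not overlap for 1 of the 8 genes in each comparison with vehicle, against 30.1% and 20.5% of all genes, Mrc1 being higher with R788 + anti-PDL1 (13.6% of all genes were higher without overlap) and Arg1 being lower in irradiated tumors (11.2% of all genes were lower). No tested member was free of overlap between the treated groups, against 27.4% of all genes. The median log2 difference of the 8 genes was 0.057, 0.29 and -0.24 in the 3 comparisons, and that of all genes -0.018, 0.046 and 0.040. The comparisons share tumors and are not independent of one another.

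**Figure D1:**
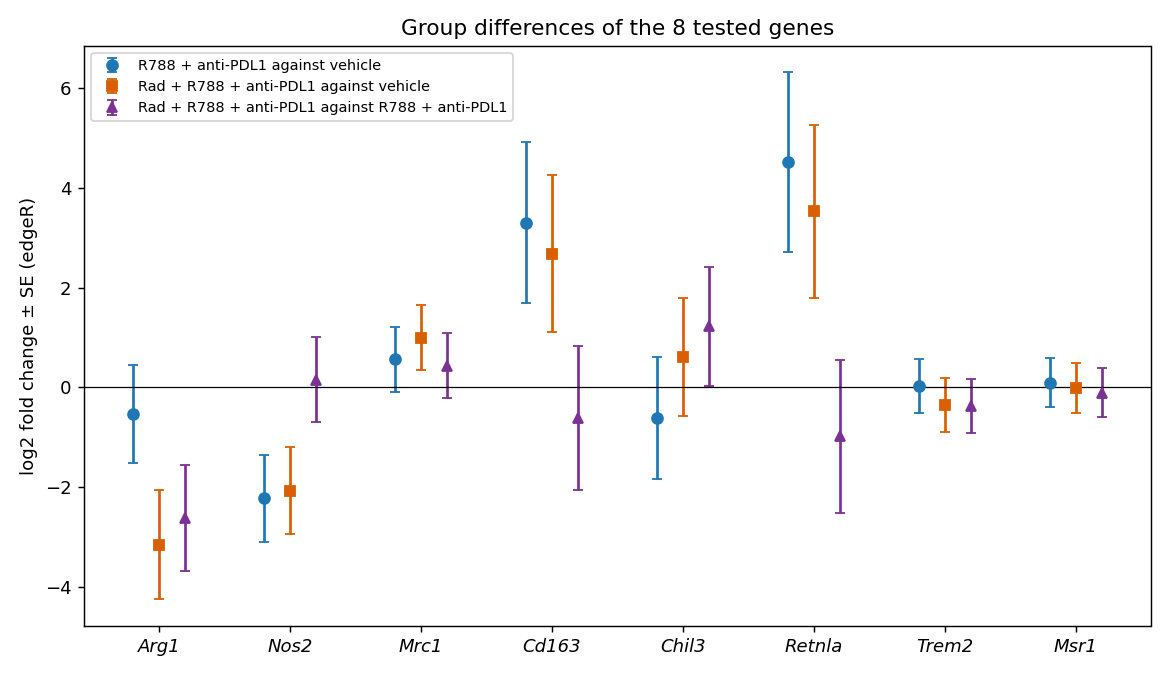
Log2 fold change (y axis, edgeR, bars show SE) of the 8 tested genes (x axis) in the 3 comparisons of 3 tumors against 3. Retnla and Cd163 carry the widest bars and Arg1 lies lowest in irradiated tumors against vehicle (-3.16), but no gene reached an adjusted p-value under 0.05.

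Levels were also put on a scale per kilobase of exons (RPKM), with all annotated exons of a gene merged. The merged length was 4946 bases for Trem2 and 2228 for Arg1. The transcripts present may be shorter, so ranks between genes hold for this scale only. On it, Mrc1 and Arg1 had the highest means of the members in vehicle tumors, at 7.87 ± 0.70 and 7.43 ± 0.20 (SD, n = 3), and did not differ beyond their spread. Retnla followed at 3.28 ± 0.41 RPKM. Trem2, Msr1 and Nos2 came next at 2.0 ± 1.05, 1.81 ± 0.20 and 1.36 ± 1.01 RPKM, again within their spread. Chil3, Cd163, Arg2 and Il10 each averaged under 0.3 RPKM. With R788 + anti-PDL1, Retnla had the highest mean at 74.9 ± 96.3 RPKM, with an SD larger than the mean, ahead of Mrc1 at 11.6 ± 1.39 and Arg1 at 5.12 ± 4.54. In irradiated tumors the means were 37.7 ± 54.9 for Retnla, 15.6 ± 18 for Mrc1 and 0.82 ± 0.28 for Arg1, which was sixth of the 10 genes.

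Arg1 (ENSMUSG00000019987.9, GRCm38 chromosome 10, 24915221 to 24927484) was nearly even in vehicle tumors, at 16.1, 17.0 and 16.5 CPM. R788 + anti-PDL1 tumors held 19.75, 0.153 and 14.3 CPM, so that replicates 1 and 3 lay on either side of the vehicle values and replicate 2, with 4 counts, lay far below. Irradiated tumors held 1.18, 1.88 and 2.42 CPM (16, 37 and 53 counts). All 3 irradiated values lay below all 3 vehicle values, but R788 + anti-PDL1 replicate 2 was lower than any of them. The irradiated mean was 8.95-fold lower than vehicle in the fit (log2 difference -3.16 ± 1.09 SE, adjusted p = 0.307), and the log2 difference ranged from -3.42 to -2.91 when single libraries were left out. Against R788 + anti-PDL1 it was -2.62 ± 1.07 (adjusted p = 0.251), and -3.20 (adjusted p = 0.0587) without R788 + anti-PDL1 replicate 2. For R788 + anti-PDL1 against vehicle it was -0.54 ± 0.99 (adjusted p = 0.885), and 0.039 without that replicate, so that a single tumor set the sign.

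Arg2 (ENSMUSG00000021125.6, chromosome 12, 79130777 to 79156301), the mitochondrial arginase, was barely detected. Its 9 libraries held 0 to 12 counts, up to 0.274 CPM in vehicle, 0.344 CPM in R788 + anti-PDL1 and 0.548 CPM in irradiated tumors. Its exons share bases with Vti1b and Gm48780 on the opposite strand, and since library strandedness was not stated these few counts are uncertain. Arg1 had more counts than Arg2 in 8 of the 9 tumors, the exception being R788 + anti-PDL1 replicate 2, in which Arg2 had 9 counts and Arg1 had 4.

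Nos2 (ENSMUSG00000020826.8, chromosome 11, 78920787 to 78960254) was 1.33, 10.2 and 6.47 CPM in vehicle tumors. It was 1.41, 0.994 and 1.43 CPM with R788 + anti-PDL1 and 0.148, 2.18 and 1.87 CPM in irradiated tumors. Vehicle replicates 2 and 3 were the highest of the 9 tumors, while vehicle replicate 1 lay within the range of the treated tumors. The log2 difference from vehicle was -2.23 ± 0.87 for R788 + anti-PDL1 (adjusted p = 0.359) and -2.07 ± 0.87 for irradiated tumors (adjusted p = 0.361). The treated groups had a difference of 0.15 ± 0.86 (adjusted p = 0.934), and its sign turned when irradiated replicate 2 or 3 was left out (-0.29 and -0.09).

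**Figure D2:**
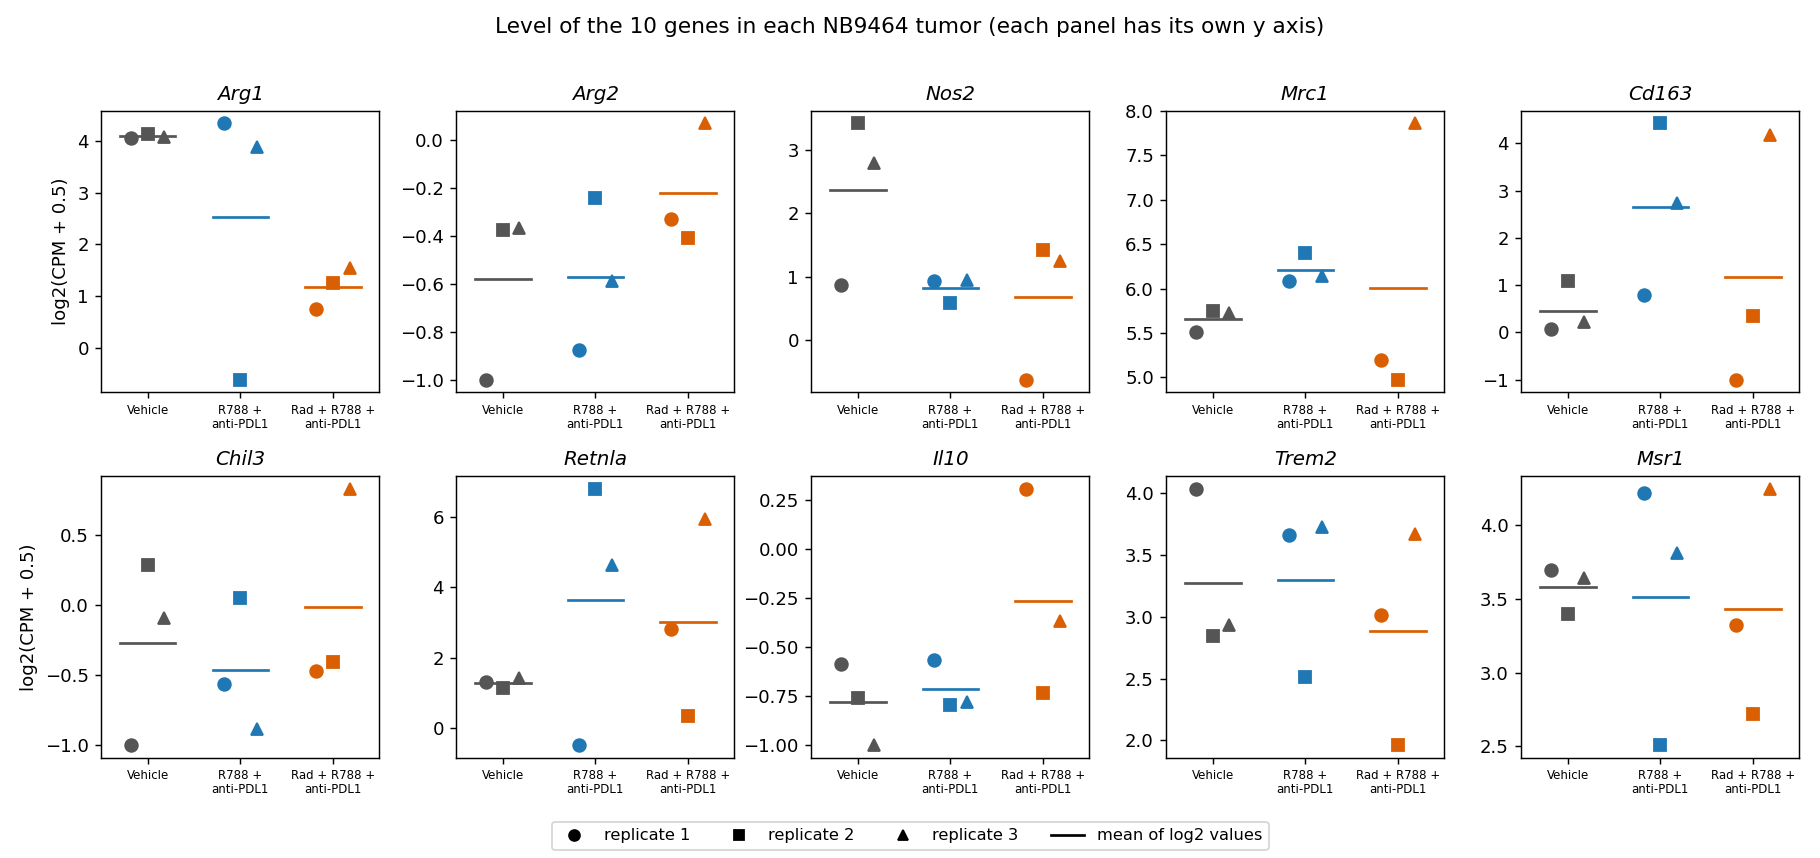
Level of each of the 10 genes as log2(CPM + 0.5) (y axis, scaled per panel) in the 9 tumors, grouped by treatment (x axis), with 1 marker shape per replicate and a line at the mean of the log2 values. Arg1 is tight in vehicle and low in all irradiated tumors and in R788 + anti-PDL1 replicate 2, and Retnla and Cd163 are high in R788 + anti-PDL1 replicates 2 and 3 and irradiated replicate 3.

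Among 23 tested genes of arginine and polyamine metabolism other than the members, 1 was called, in R788 + anti-PDL1 against vehicle, where 0.678% of all genes were called. Ddah1, which breaks down methylated arginines that inhibit nitric oxide synthases, rose in R788 + anti-PDL1 tumors from 36.2, 24.3 and 24.8 to 81.9, 83.5 and 76.4 CPM (log2 difference 1.5 ± 0.22, adjusted p = 0.0383). The groups were far apart, yet the call was lost on leaving out any 1 of 5 libraries, all but vehicle replicate 1, with adjusted p-values of 0.0627 to 0.216, and was 0.769 without both middle libraries (log2 difference 1.45). In irradiated tumors Ddah1 was 36.8, 49.6 and 41.6 CPM, all above vehicle and all below R788 + anti-PDL1 (adjusted p = 0.321 and 0.175). Ass1 and Asl rebuild arginine from citrulline. Ass1 was 25.8, 12.1 and 16.2 CPM in vehicle, 44.7, 30.5 and 40.9 CPM with R788 + anti-PDL1 and 33.5, 48.3 and 40.9 CPM in irradiated tumors, without overlap with vehicle in either case (log2 differences 1.10 ± 0.30, adjusted p = 0.156, and 1.18 ± 0.30, adjusted p = 0.215). Asl was 88.8, 107 and 106 CPM in vehicle, 40.8, 49.0 and 44.1 CPM with R788 + anti-PDL1 (log2 difference -1.17 ± 0.41, adjusted p = 0.283), and 235, 79.6 and 73.0 CPM in irradiated tumors. Nos1, the neuronal synthase, was 2.37, 1.12 and 1.70 CPM in vehicle, 0.838, 16.1 and 7.17 CPM with R788 + anti-PDL1 and 2.43, 25.8 and 17.4 CPM in irradiated tumors. It had a log2 difference from vehicle of 2.22 ± 1.01 with R788 + anti-PDL1 and 3.14 ± 1.04 in irradiated tumors (adjusted p = 0.44 and 0.289). Over the list, 7 genes were higher and 16 lower with R788 + anti-PDL1 than in vehicle (median log2 difference -0.10), 17 higher and 6 lower in irradiated tumors than in vehicle (0.37), and 14 higher and 9 lower in irradiated than in R788 + anti-PDL1 tumors (0.46). Of all genes, 48.4%, 52.9% and 52.5% were higher in these comparisons. Irradiated replicate 1 was the highest tumor for 11 of the 23 genes, against 30.4% of all genes tested. The summed level reached 3897 CPM in irradiated replicate 1, the library that stood apart, and was 2020 to 2454 CPM in the other 8.

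Mrc1 (ENSMUSG00000026712.3, chromosome 2, 14229392 to 14332057) encodes the mannose receptor CD206. It was 45.0, 53.1 and 52.3 CPM in vehicle tumors, 67.5, 84.1 and 70.3 CPM with R788 + anti-PDL1, and 36.0, 31.0 and 231.9 CPM in irradiated tumors. All R788 + anti-PDL1 values lay above all vehicle values (log2 difference 0.56 ± 0.65, adjusted p = 0.81), whereas irradiated replicates 1 and 2 lay below vehicle and replicate 3 was the highest of all 9. The irradiated difference from vehicle was 0.99 ± 0.65 with all libraries (adjusted p = 0.484) and -0.59 without irradiated replicate 3. Against R788 + anti-PDL1 it was 0.43 ± 0.65 (adjusted p = 0.731), and -1.15 without that library. Macrophage identity genes, taken as a geometric mean, were likewise above vehicle with R788 + anti-PDL1 and highest in irradiated replicate 3. Within each group, however, their order of replicates differed from that of Mrc1. The geometric mean of 7 of them (Adgre1, Csf1r, Cd68, Fcgr1, Mertk, Lyz2 and Aif1) was 21.7, 12.6 and 16.0 CPM in vehicle, 29.4, 27.1 and 30.4 CPM with R788 + anti-PDL1 and 13.2, 13.8 and 71.6 CPM in irradiated tumors. Irradiated replicate 3 had the highest value for 12 of 14 macrophage identity genes, against 9.12% of all genes tested, and their summed level was 1871 CPM there, 371 to 570 CPM in the other irradiated tumors, 722 to 733 CPM with R788 + anti-PDL1 and 311 to 689 CPM in vehicle. Mrc1 relative to these markers is given below.

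Cd163 (ENSMUSG00000008845.9, chromosome 6, 124304656 to 124330527), the receptor for hemoglobin bound to haptoglobin, was scarce in vehicle tumors at 0.552, 1.62 and 0.658 CPM. It was 1.23, 20.9 and 6.15 CPM with R788 + anti-PDL1, and 0, 0.761 and 17.5 CPM in irradiated tumors, where the 0 allows up to 0.221 CPM. The high tumors, R788 + anti-PDL1 replicates 2 and 3 and irradiated replicate 3, all exceeded every vehicle tumor, and the other treated tumors lay in or below the vehicle range. The log2 difference from vehicle was 3.30 ± 1.61 with R788 + anti-PDL1 (adjusted p = 0.489) and 2.68 ± 1.58 in irradiated tumors (adjusted p = 0.448). Without R788 + anti-PDL1 replicate 2 the first was 1.95, and without irradiated replicate 3 the second was -1.21. Between the treated groups it was -0.62 ± 1.45 (adjusted p = 0.83).

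Msr1 (ENSMUSG00000025044.16, chromosome 8, 39581685 to 39642673), a class A scavenger receptor for modified lipoproteins, was 12.5, 10.1 and 11.9 CPM in vehicle, 18.1, 5.2 and 13.5 CPM with R788 + anti-PDL1 and 9.51, 6.09 and 18.4 CPM in irradiated tumors. Each treated group spanned the whole vehicle range. The log2 differences were 0.095 ± 0.49, -0.016 ± 0.50 and -0.11 ± 0.49 in the 3 comparisons (adjusted p = 0.967, 0.99 and 0.916).

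Trem2 (ENSMUSG00000023992.14, chromosome 17, 48346401 to 48354147), a lipid-sensing receptor upstream of Syk, was 15.9, 6.69 and 7.12 CPM in vehicle, 12.2, 5.2 and 12.7 CPM with R788 + anti-PDL1 and 7.60, 3.40 and 12.2 CPM in irradiated tumors. The 3 groups overlapped throughout. Its log2 differences were 0.020 ± 0.54, -0.35 ± 0.55 and -0.37 ± 0.55 (adjusted p = 0.993, 0.757 and 0.724). R788 + anti-PDL1 replicate 2 and irradiated replicate 2 were the lowest tumors for both Trem2 and Msr1.

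None of 16 tested scavenger and endocytic receptor genes and none of 15 tested genes around Trem2 was called in any comparison with edgeR. An unadjusted p-value under 0.05 was obtained for 5, 4 and 3 of the scavenger genes and for 2, 4 and 2 of the Trem2 genes. The shares of all genes were 11.7%, 13.2% and 18.4%. Cd36, a receptor for oxidized lipids, was 32.6, 16.3 and 21.1 CPM in vehicle, 34.4, 28.0 and 32.5 CPM with R788 + anti-PDL1 and 3.61, 7.41 and 12.0 CPM in irradiated tumors, below both other groups (log2 differences -1.59 ± 0.41, adjusted p = 0.221, and -2.03 ± 0.42, adjusted p = 0.139). Scara5, a ferritin receptor, lay above vehicle in both treated groups (1.41 ± 0.42, adjusted p = 0.203, and 0.98 ± 0.42, adjusted p = 0.365), and Stab1, another scavenger receptor, had a difference of 1.9 ± 0.59 between irradiated and vehicle tumors and 1.41 ± 0.58 between irradiated and R788 + anti-PDL1 tumors (adjusted p = 0.271 and 0.253). Within the Trem2 list, Spp1 (osteopontin) was 96.6, 64.3 and 62.7 CPM in vehicle, 38.9, 11.9 and 32.1 CPM with R788 + anti-PDL1 and 50.2, 23.3 and 24.8 CPM in irradiated tumors, with both treated groups below vehicle (-1.43 ± 0.45, adjusted p = 0.234, and -1.19 ± 0.45, adjusted p = 0.334). Apoe, a lipid carrier, was 1486 CPM in irradiated replicate 3 and 146 to 604 CPM elsewhere. Gpnmb, a lysosomal glycoprotein, had a difference of -1.12 ± 0.32 between irradiated and R788 + anti-PDL1 tumors (adjusted p = 0.22). Syk itself was 19.3, 14.3 and 13 CPM in vehicle, 30.3, 24.8 and 31.4 CPM with its inhibitor and anti-PDL1, and 15.3, 13.4 and 48.5 CPM in irradiated tumors, with differences from vehicle of 0.89 ± 0.45 and 0.73 ± 0.45 (adjusted p = 0.51 and 0.461). Tyrobp, the adaptor, was also highest in irradiated replicate 3, at 35.3 CPM and at 7.23 to 18.9 CPM in the others.

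Retnla (ENSMUSG00000061100.4, chromosome 16, 48842551 to 48844461) encodes a secreted resistin-like protein (RELM alpha) and had the widest range of all members. Vehicle tumors held 1.99, 1.71 and 2.19 CPM. R788 + anti-PDL1 tumors held 0.220, 110.0 and 24.3 CPM, a 499-fold span, and irradiated tumors 6.56, 0.761 and 60.4 CPM. In each treated group 2 tumors lay above and 1 below all vehicle tumors. The log2 difference from vehicle was 4.51 ± 1.80 with R788 + anti-PDL1 (adjusted p = 0.368) and 3.53 ± 1.74 in irradiated tumors (adjusted p = 0.4), falling to 2.65 without R788 + anti-PDL1 replicate 2 and to 0.86 without irradiated replicate 3. Between the treated groups it was -0.99 ± 1.54 (adjusted p = 0.741). R788 + anti-PDL1 replicate 2, the tumor with the most Retnla and the most Cd163, was the tumor with the least Arg1. Replicates 1, 3 and 2 of that group had this order for Retnla and Cd163 and the opposite order for Arg1, the same middle position that replicate 3 held at most of its widely spread genes.

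**Figure D3:**
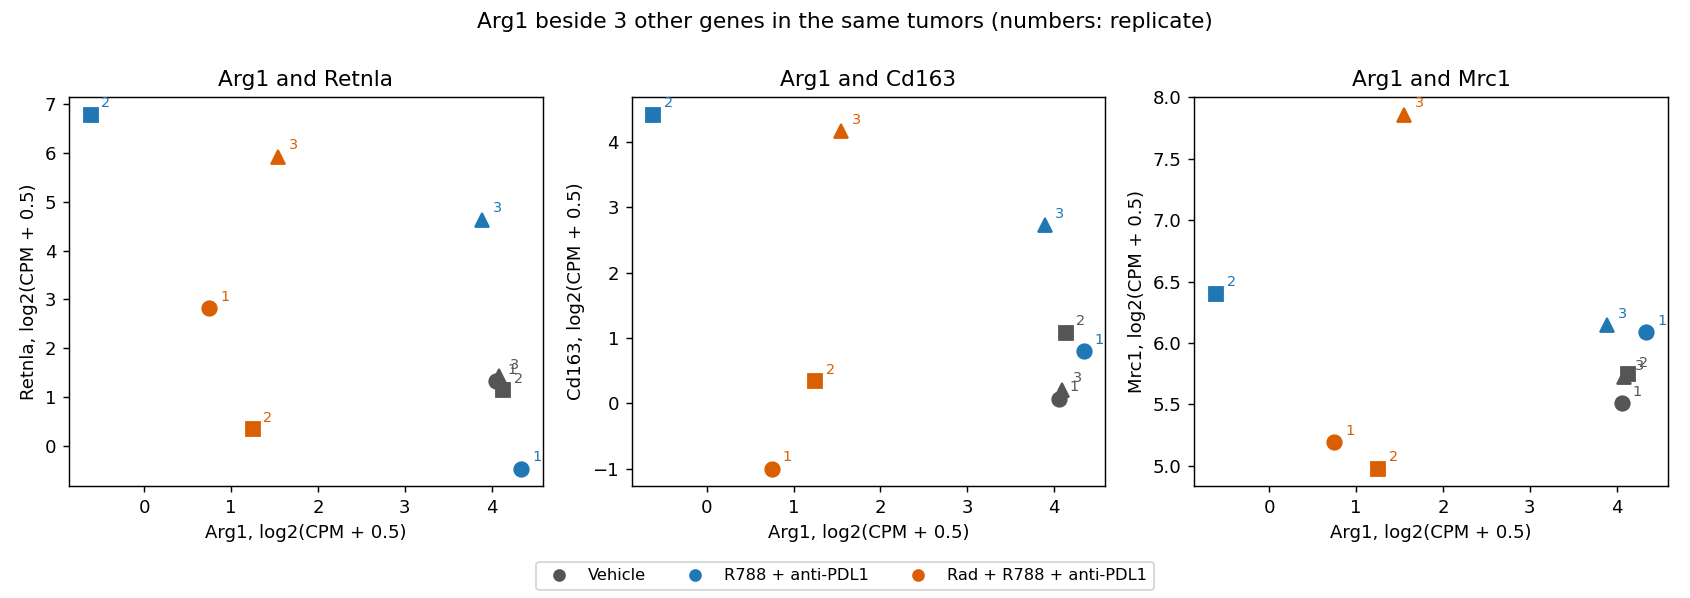
Arg1 (x axis) against Retnla, Cd163 and Mrc1 (y axes), all as log2(CPM + 0.5), in the 9 tumors, colored by group and numbered by replicate. The tumor with the most Retnla, R788 + anti-PDL1 replicate 2, has the least Arg1 (0.153 CPM), and irradiated tumors spread over Retnla while staying low in Arg1.

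Retnla is also made outside macrophages, so markers of other cells were examined beside it. Of 6 adipocyte genes, Adipoq, Plin1, Cidec and Lep were at 0 to 0.861 CPM in all tumors, and the summed level, nearly all of it Fabp4, was 17.9 to 42.7 CPM in vehicle, 21.8 to 27.7 CPM with R788 + anti-PDL1 and 10.5 to 25.6 CPM in irradiated tumors. The eosinophil genes Epx and Prg2 were at 0 to 0.0913 CPM. Mast cell genes were present, with Cpa3, a mast cell protease, at 11.3, 16.8 and 12.3 CPM in R788 + anti-PDL1 tumors and 0.384 to 2.87 CPM in the other 6. All 6 tested genes of the eosinophil, basophil and mast cell list were higher without overlap with R788 + anti-PDL1 than in vehicle (adjusted p = 0.1 for Cpa3), against 13.6% of all genes. The summed level of the list in those 3 tumors was 38.4, 52.9 and 39.6 CPM. The keratinocyte gene Krt5 was 1.9, 63.1 and 22.7 CPM with R788 + anti-PDL1 and 75.0, 54.1 and 46.5 CPM in irradiated tumors, against 3.05 to 7.51 CPM in vehicle, while Krt1, Krt10 and Lor were at 0 to 0.41 CPM in all tumors. Krt5 thus had the same order as Retnla among the R788 + anti-PDL1 tumors but not among irradiated tumors, and its part in the Retnla values was not tested. Replicate 3 was the middle value of the R788 + anti-PDL1 group at 59.5% of all genes tested, so a shared order within that group is common. The summed level of 8 fibroblast genes was 2963, 5519 and 3479 CPM with R788 + anti-PDL1, against 3095 to 3895 CPM in vehicle and 2592 to 5042 CPM in irradiated tumors. That of 6 endothelial genes was 43.2, 111.5 and 65.8 CPM with R788 + anti-PDL1, against 34.5 to 44.8 CPM in vehicle and 47.6 to 59.4 CPM in irradiated tumors. Both sums had the order of Retnla and Cd163 among the R788 + anti-PDL1 tumors, again with replicate 3 in the middle as at most genes. Replicate 2 of that group was the highest of all 9 tumors for 5 of 8 fibroblast and 4 of 6 endothelial genes, against 12.7% of all genes. Their part in the Retnla and Cd163 values was not tested.

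Chil3 (ENSMUSG00000040809.10, chromosome 3, 106147554 to 106167564), which encodes the chitinase-like protein Ym1, was near the detection limit with 0 to 28 counts. It was 0, 0.719 and 0.438 CPM in vehicle, 0.176, 0.535 and 0.041 CPM with R788 + anti-PDL1, and 0.221, 0.254 and 1.28 CPM in irradiated tumors. Only irradiated replicate 3 exceeded 1 CPM. The log2 differences of -0.62 ± 1.22, 0.60 ± 1.18 and 1.22 ± 1.2 came with adjusted p-values of 0.894, 0.812 and 0.581. Its close paralog Chil4 had no count in any tumor.

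Promoter windows of 250 bases before the RefSeq gene start were held for 5 of the 10 genes (GRCm38.p6), and 4 of them, the receptors and secreted proteins with the most uneven levels, are shown to place the letters that STAT factors are known to bind. Each is written 5′ to 3′ on the strand of the gene, and capitals mark a match. The windows are Retnla at chr16:48842359-48842608 (+), Chil3 at chr3:106167565-106167814 (-), Mrc1 at chr2:14229164-14229413 (+) and Cd163 at chr6:124304401-124304650 (+).
Retnla: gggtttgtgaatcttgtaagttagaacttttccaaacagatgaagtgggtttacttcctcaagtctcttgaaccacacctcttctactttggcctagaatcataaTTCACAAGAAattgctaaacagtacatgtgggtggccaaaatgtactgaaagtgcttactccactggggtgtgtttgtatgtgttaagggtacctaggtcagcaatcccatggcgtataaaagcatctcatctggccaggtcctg
Chil3: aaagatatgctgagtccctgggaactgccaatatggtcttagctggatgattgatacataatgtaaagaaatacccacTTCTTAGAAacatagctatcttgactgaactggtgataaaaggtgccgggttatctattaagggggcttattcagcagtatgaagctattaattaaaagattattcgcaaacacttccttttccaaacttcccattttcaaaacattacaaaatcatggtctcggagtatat
Mrc1: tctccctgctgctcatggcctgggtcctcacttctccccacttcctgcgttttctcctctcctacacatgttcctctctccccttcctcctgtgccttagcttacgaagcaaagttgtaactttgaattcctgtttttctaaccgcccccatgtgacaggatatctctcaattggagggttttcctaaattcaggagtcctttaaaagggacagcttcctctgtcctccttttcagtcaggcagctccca
Cd163: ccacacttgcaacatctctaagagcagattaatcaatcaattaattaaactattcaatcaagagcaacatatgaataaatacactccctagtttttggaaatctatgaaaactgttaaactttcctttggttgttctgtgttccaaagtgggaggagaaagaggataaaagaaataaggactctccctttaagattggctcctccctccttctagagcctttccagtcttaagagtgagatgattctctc
The letters TTC and GAA with 4 bases between them, the spacing known for STAT6, read alike on both strands. This motif was found in the Retnla window as TTCACAAGAA from -145 to -136 and in 5.85% of all 32851 windows. The form with 3 bases between, typical of other STAT factors, was found in the Chil3 window as TTCTTAGAA from -172 to -164 and in 7.02% of windows. The hypoxia response core ACGTG was sought on both strands, was in none of the 5 windows, Trem2 included, and was in 16.6% of all windows. No match overlapped another. These are matches of letters and do not show binding. Mrc1, Cd163 and Trem2 had no match.

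Other genes of alternatively activated macrophages were compared with the members. Of 20 such genes 13 were tested and 0 were called with edgeR, with 11 higher and 2 lower with R788 + anti-PDL1 than in vehicle, 10 and 3 in irradiated tumors against vehicle, and 8 and 5 between the treated groups (median log2 difference 0.53, 0.70 and 0.53). An unadjusted p-value under 0.05 was obtained for 0, 4 and 0 of them, against 11.7%, 13.2% and 18.4% of all genes. Of all genes, 48.4%, 52.9% and 52.5% were higher in these comparisons. The lectins Mgl2 and Clec10a, both markers of IL-4 activated macrophages, were highest in irradiated replicate 3 and then in R788 + anti-PDL1 replicate 2. Mgl2 was 6.51, 2.65 and 4.17 CPM in vehicle, 2.38, 20.3 and 6.72 CPM with R788 + anti-PDL1 and 6.05, 8.12 and 48.1 CPM in irradiated tumors (log2 differences from vehicle 1.14, adjusted p = 0.713, and 2.23 ± 0.94, adjusted p = 0.36). Clec10a reached 18 CPM in R788 + anti-PDL1 replicate 2 and 34.3 CPM in irradiated replicate 3, against 2.36 to 3.46 CPM in vehicle. Lyve1, a hyaluronan receptor of perivascular macrophages and lymphatic vessels, was 1.10 to 1.81 CPM in vehicle, 0.617, 13.4 and 3.77 CPM with R788 + anti-PDL1 and 0, 0.152 and 3.65 CPM in irradiated tumors. The chemokine Ccl8 was 76.3 CPM in irradiated replicate 3 and 3.20 to 14.8 CPM elsewhere. Irradiated replicate 3 was the highest tumor for 9 of the 13 genes, as for most macrophage identity genes.

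**Figure D4:**
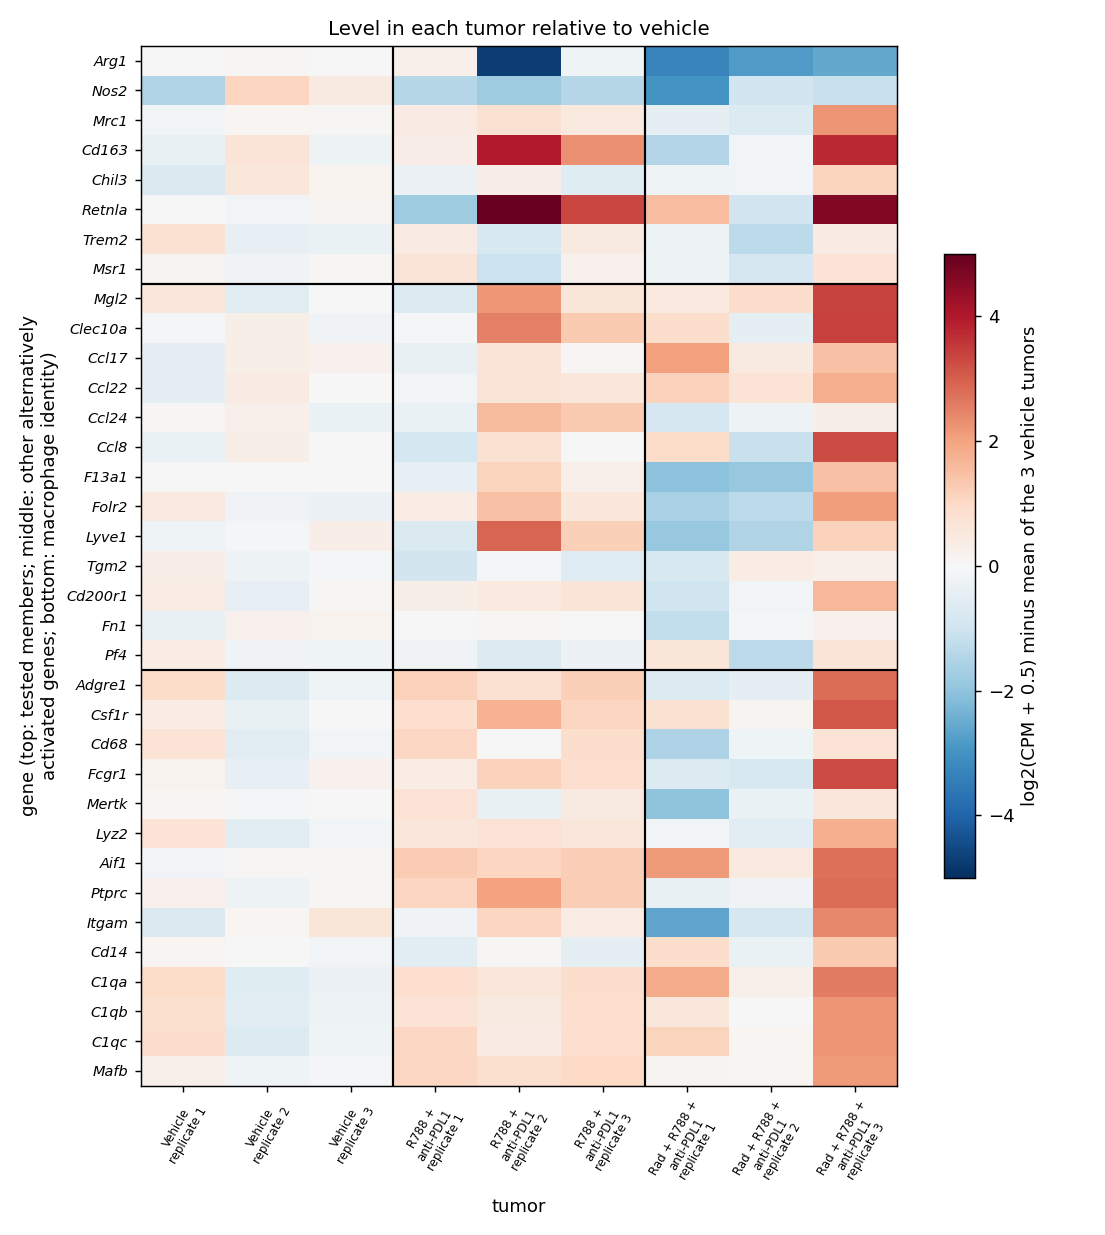
Log2(CPM + 0.5) of each tumor (columns) minus the mean of the 3 vehicle tumors (color, red higher and blue lower, limited to 5 in either direction) for the 8 tested members, 13 other alternatively activated genes and 14 macrophage identity genes (rows). Irradiated replicate 3 is red for most rows, R788 + anti-PDL1 replicate 2 is red for Retnla, Cd163, Lyve1 and Clec10a, and Arg1 is blue in the irradiated tumors and in R788 + anti-PDL1 replicate 2.

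The ligands and mediators of the IL-4 and IL-13 pathway were examined next. Il4 and Il13 were at 0 to 0.573 CPM in all tumors and were not tested. Il13ra1, a receptor chain for IL-13, was 8.61, 6.02 and 7.56 CPM in vehicle, 23.6, 11.7 and 18.9 CPM with R788 + anti-PDL1 and 12.3, 22.8 and 25.2 CPM in irradiated tumors, without overlap with vehicle (log2 differences 1.29 ± 0.35, adjusted p = 0.155, and 1.44 ± 0.35, adjusted p = 0.192). Klf4, a transcription factor induced through STAT6, also lay above vehicle in both treated groups (1.25 ± 0.44 and 1.42, adjusted p = 0.288 and 0.271). Stat6 itself was 7.34, 5.79 and 4.82 CPM in vehicle, 10.1, 12.7 and 10.5 CPM with R788 + anti-PDL1 and 2.80, 4.57 and 20.9 CPM in irradiated tumors. Cebpb encodes a transcription factor known to act on the Arg1 gene. Its values were 195, 300 and 293 CPM in vehicle and 70.5, 58.6 and 65.9 CPM with R788 + anti-PDL1 (log2 difference -2.01 ± 0.70, adjusted p = 0.283), whereas irradiated tumors held 228 and 212 CPM in replicates 2 and 3 and 1603 CPM in replicate 1. In all 13 tested genes of the list, 0 were called with edgeR. An unadjusted p-value under 0.05 was obtained for 3, 3 and 1 genes in the 3 comparisons, against 11.7%, 13.2% and 18.4% of all genes.

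Il10 (ENSMUSG00000016529.5, chromosome 1, 131019845 to 131024974), the cytokine most tied to suppression by myeloid cells, was at the limit of detection. It had 3, 2 and 0 counts in vehicle, 4, 2 and 2 with R788 + anti-PDL1 and 10, 2 and 6 in irradiated tumors, and was not tested. A difference of a few counts is not detectable at this depth. Of 10 tested genes around IL-10, 1 was called, in R788 + anti-PDL1 against vehicle, where 0.678% of all genes were called. Nfil3, a transcription factor that IL-10 induces, fell in R788 + anti-PDL1 tumors from 34.8, 40.0 and 41.3 to 15.0, 15.2 and 14.1 CPM (log2 difference -1.39 ± 0.21, adjusted p = 0.0383). As for Ddah1, that call was lost without any 1 of 5 libraries, all but vehicle replicate 1 (adjusted p = 0.0661 to 0.216, and 0.769 without both middle libraries). Irradiated tumors had 38.2, 26.8 and 26.0 CPM, all above R788 + anti-PDL1 (1.03 ± 0.21, adjusted p = 0.135). The signalling genes Stat3 and Socs3 had differences from vehicle of -0.78 and -0.95 with R788 + anti-PDL1 and of -0.90 and -0.93 in irradiated tumors (adjusted p = 0.285 to 0.396). Il10ra, the receptor chain, was 2.47 to 3.26 CPM in vehicle, 5.86 to 6.96 CPM with R788 + anti-PDL1 and 3.32, 3.35 and 24.5 CPM in irradiated tumors (1.1 ± 0.71 and 1.81 ± 0.72, adjusted p = 0.626 and 0.348).

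Each tested member was next set against the macrophage markers of the same tumor, as log2(CPM + 0.5) of the gene minus the mean over the 7 markers. With 3 tumors in each group the smallest p-value of an exact two-sided permutation test is 0.1, and the 24 tests gave Benjamini-Hochberg values of at least 0.533. Relative to the markers, Arg1 was 0.06 ± 0.43 in vehicle (SD, n = 3), -2.32 ± 2.66 with R788 + anti-PDL1 and -3.38 ± 1.09 in irradiated tumors. Both treated groups lay wholly below vehicle (differences -2.38 and -3.44, exact p = 0.1 each, the smallest possible). The markers themselves were higher by 0.82 in R788 + anti-PDL1 and by 0.53 in irradiated than in vehicle tumors on this log2 scale, which lowers every other gene by as much. On the relative scale 56.5% of all genes tested lay below vehicle without overlap in R788 + anti-PDL1 and 2.13% in irradiated tumors, and the median difference of all genes was -0.84 and -0.52. Non-overlap with R788 + anti-PDL1 was thus common to most genes. Nos2 relative to the markers was -1.67 ± 1.71 in vehicle and -4.03 ± 0.13 with R788 + anti-PDL1, without overlap (difference -2.36, exact p = 0.1). Trem2 was -0.76 ± 0.34 in vehicle and -1.56 ± 0.60 with R788 + anti-PDL1, without overlap, by a difference close to the median of all genes (-0.79, exact p = 0.1). Mrc1 stayed closest to the markers. It was 1.63 ± 0.51 in vehicle, 1.36 ± 0.25 with R788 + anti-PDL1 and 1.45 ± 0.26 in irradiated tumors, so that the high CPM of irradiated replicate 3 was matched by its macrophage markers. Cd163 was -3.58 ± 0.91, -2.21 ± 1.87 and -3.39 ± 1.37, and Retnla -2.74 ± 0.33, -1.21 ± 3.77 and -1.53 ± 1.70, with overlap in all comparisons (exact permutation p from 0.3 to 0.9). Msr1 differed from vehicle by -0.89 and -0.68 in the treated groups (exact permutation p = 0.2 each).

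**Figure D5:**
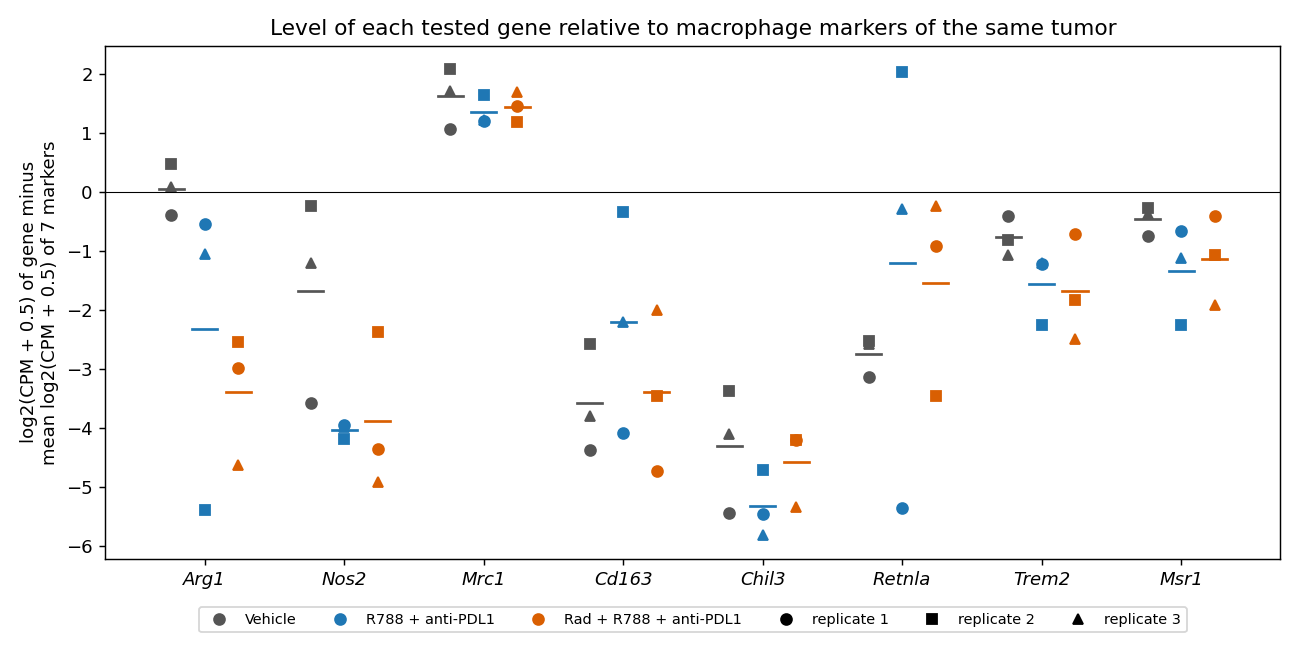
Log2(CPM + 0.5) of each tested gene minus the mean log2(CPM + 0.5) of 7 macrophage markers in the same tumor (y axis) for the 8 tested genes (x axis), with points for tumors and lines for group means. Arg1 is the member whose treated tumors all lie below vehicle (lowest tumor -0.38) in both groups, and Mrc1 stays between 1.07 and 2.08 in every tumor.

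Genes most like each tested member were taken as the 3 of highest Pearson correlation of log2 CPM over the 9 libraries, among 11636 candidates averaging 50 counts or more (11637 for some members). The correlations describe libraries that share groups and include 1 library that stood apart, and they carry no test. For Arg1 these were Sgta, Vmp1 and Maoa (r = 0.977, 0.975 and 0.970), but their ranges were narrow beside that of Arg1, for example 33.9 to 85.6 CPM for Vmp1 over all tumors. Maoa encodes monoamine oxidase A. The genes most like Mrc1 were Maf, Ms4a4a and Fcgr1 (r = 0.984, 0.976 and 0.975), of which Maf encodes a transcription factor of resident macrophages and Fcgr1 is one of the 7 markers. Abca9 and Gimap6 were most like Cd163 (r = 0.971 and 0.958), and Ly6a, Hps3 and Tep1 most like Retnla (r = 0.933, 0.930 and 0.925). Ly6a, which encodes the surface antigen Sca-1, was 2.08 ± 0.26 CPM in vehicle, 6.88 ± 6.35 CPM with R788 + anti-PDL1 and 11.5 ± 14.1 CPM in irradiated tumors. For Nos2 they were Hsd17b7, Vps4b and Eprs (r = 0.976, 0.975 and 0.972), and for Chil3 Trim30a, Grid2ip and Jak3 (r = 0.920, 0.913 and 0.901). Plau, which encodes urokinase, was among the 3 for both Trem2 (r = 0.904, with Acbd4 and Slc15a3) and Msr1 (r = 0.916, with Il1rn and Mfsd12). Among the members themselves, Trem2 and Msr1 had the highest correlation (r = 0.84, rho = 0.78, n = 9 libraries), followed by Mrc1 and Cd163 (r = 0.79, rho = 0.87).

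Inflammatory macrophage genes other than Nos2, the usual counterpart of the suppressive genes, were compared in the same way. Of 15 tested, 0 were called with edgeR in any comparison. An unadjusted p-value under 0.05 was obtained for 2 in each, against 11.7%, 13.2% and 18.4% of all genes. Between irradiated and R788 + anti-PDL1 tumors 14 of the 15 were higher (median log2 difference 0.44, with 52.5% of all genes higher), among them the cytokine gene Il23a and the chemokine Cxcl10 (1.27 ± 0.53 and 1.19 ± 0.54, adjusted p = 0.255 and 0.276). In this comparison 3 of the 15 were higher without overlap and 0 lower, against 27.4% of all genes in either direction. Irradiated replicate 3 was the highest of all 9 tumors for 7 of the 15, against 9.12% of all genes tested. Against vehicle 6 were higher and 9 lower with R788 + anti-PDL1, and 8 higher and 7 lower in irradiated tumors. Of all genes, 48.4% and 52.9% were higher in these comparisons. Ptgs2, which makes prostaglandins, was 5.52, 32.8 and 24 CPM in vehicle, 10.2, 3.40 and 8.48 CPM with R788 + anti-PDL1 and 5.38, 7.66 and 9.41 CPM in irradiated tumors, an order like that of Nos2 with vehicle replicates 2 and 3 highest. Il1b was 1.10, 3.05 and 4.88 CPM in vehicle and 0.838, 0.879 and 0.902 CPM with R788 + anti-PDL1, without overlap (log2 difference -1.78 ± 0.54, adjusted p = 0.21).

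The study text names other suppressive genes beside Arg1 and Il10. Il1b is among them and is given above with the inflammatory genes. It was lower with R788 + anti-PDL1 than in vehicle, without overlap, and was not called with edgeR. Mmp9, a matrix protease, was 10.8, 9.74 and 10.6 CPM in vehicle, 76.2, 12.4 and 62.7 CPM with R788 + anti-PDL1 and 36.4, 23.1 and 25.2 CPM in irradiated tumors, above vehicle in all 6 treated tumors (log2 differences 2.28 ± 0.55, adjusted p = 0.11, and 1.44 ± 0.53, adjusted p = 0.329). Its lowest treated tumor was again R788 + anti-PDL1 replicate 2, the one with the least Arg1. Tgfb1, a suppressive growth factor, had differences from vehicle of -0.08 ± 0.20 and 0.48 ± 0.20 (adjusted p = 0.923 and 0.354), and Vegfa, the angiogenic factor, of -0.48 ± 0.29 and -0.57 ± 0.29 (adjusted p = 0.602 and 0.404). Ido1, which degrades tryptophan, was at 0 in 8 tumors and at 0.265 CPM in R788 + anti-PDL1 replicate 1. Cd274, the target of the antibody, was 4.56 ± 1.98 CPM in vehicle, 4.08 ± 1.54 CPM with R788 + anti-PDL1 and 4.07 ± 3.40 CPM in irradiated tumors (log2 differences -0.16 ± 0.62 each from vehicle, adjusted p = 0.953 and 0.910).

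Neutrophils can also express Arg1, and their markers were examined beside it. Ly6g and Ngp had no count in any tumor, and the summed level of 10 neutrophil genes was 5.25 to 13.8 CPM in vehicle, 5.11 to 7.99 CPM with R788 + anti-PDL1 and 5.53 to 21.4 CPM in irradiated tumors. S100a8 and S100a9, genes expressed by neutrophils and monocytes, were at 0.0882 to 4.0 CPM in all tumors, with their lowest values in R788 + anti-PDL1 tumors (log2 differences from vehicle -3.0 and -3.45, adjusted p = 0.11 and 0.0832). Arg1 was 19.75, 0.153 and 14.3 CPM in the R788 + anti-PDL1 tumors. In the neuroblast list Isl1 was called, with no count in vehicle tumors and 3.53, 1.83 and 2.58 CPM with R788 + anti-PDL1 (adjusted p = 0.0344). It was also higher in irradiated than in vehicle tumors, short of a call (edgeR adjusted p = 0.0605). Erythroid genes, which follow the blood content of a sample, were 201 to 625 CPM in vehicle, 58.2 to 109 CPM with R788 + anti-PDL1 and 48.9 to 183 CPM in irradiated tumors, so that every treated tumor lay below every vehicle tumor. Summed T and NK cell genes were 3.68 to 9.55 CPM in vehicle, 19.0 to 31.1 CPM with R788 + anti-PDL1 and 6.93 to 45.4 CPM in irradiated tumors, with the highest value in irradiated replicate 3. The part of these cell types in the values of the 10 genes was not tested.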

How the data were processed

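RNA from 9 whole tumors was sequenced as poly(A) libraries. Per the labels and the study's methods, the authors aligned reads to mm10 with STAR 2.6.1d, quantified them with Salmon 1.4.0 in bcbio and compared groups with DESeq2. The submitters' processing notes also list SAMtools 1.9, Picard 2.26 and MultiQC 1.11. The authors deposited estimated counts by gene symbol, not normalized and already whole. The sources conflict on the RNA source (macrophages in the extraction text, whole tumor in the tissue label) and on the sequencer, and strandedness was not stated.

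Groups followed the treatment labels. The labels do not say that replicates came from separate animals, so p-values measure the spread between these 9 samples. Genes were filtered with filterByExpr (minimum count 10), scaled by TMM and tested with the robust quasi-likelihood F test of edgeR 4.0.16 (R 4.3.3, two-sided, all 9 libraries in a single fit), with Benjamini-Hochberg adjustment over 15931 genes and a threshold of 0.05. The steps were tested on simulated data. Levels relative to macrophage markers used exact two-sided permutation tests. RPKM used the exonic lengths of GENCODE M21 (GRCm38), with all annotated exons of a gene merged. GENCODE M21 was also the source of identifiers and coordinates. Promoter sequences came from RefSeq (GRCm38.p6).

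The 10 genes were named whatever their values. From each other list, called genes and the 2 highest and 2 lowest log2 differences among genes averaging 50 counts or more were eligible, and for likeness the 3 highest correlations. Tyrobp, Il4, Il13, Il1b, Ido1, Chil4, S100a8, S100a9 and the adipocyte, eosinophil, keratinocyte and neutrophil markers outside that rule were named after their values were seen. The members and all lists were chosen with earlier results of these data known. A few single-gene results are not reported here. The middle and highest libraries were counted after seeing the data. Alternatives were DESeq2 1.42.0, limma-voom 3.58.1 with sample quality weights, RLE scaling, library totals, no count filter, a fit of the 6 libraries compared, a replicate block, leaving out each library and, added later, both middle libraries.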

Additional observations from a re-analysis of the deposited data

How the results depend on the processing

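The number of called genes depended on the method. In the order R788 + anti-PDL1 against vehicle, irradiated against vehicle and irradiated against R788 + anti-PDL1, it was 108, 7 and 1 (unadjusted p-value under 0.05 for 1857, 2107 and 2926 genes), 770, 611 and 822 with DESeq2, 4831, 2010 and 3089 with limma-voom and quality weights, 199, 70 and 24 without the count filter, 594, 1 and 0 with only the 6 libraries compared, and 0, 1 and 0 with library totals. Where the count was 0, an unadjusted p-value under 0.05 was still obtained for 1908 genes with 6 libraries and for 1650 and 2250 with library totals. Leaving out single libraries gave 0 to 75, 1 to 57 and 0 to 21, with 0 in the first comparison without R788 + anti-PDL1 replicate 1 or 3 or vehicle replicate 2 or 3 (unadjusted p-value under 0.05 for 1513, 1171, 1446 and 1247 genes). Leaving out both vehicle replicate 3 and R788 + anti-PDL1 replicate 3, a choice made after seeing the data, gave 0, 0 and 0, and turned the sign of Trem2 in R788 + anti-PDL1 against vehicle (-0.38) and of Msr1 in irradiated tumors against vehicle (0.0082). The calls of Ddah1 and Nfil3 were lost with library totals (adjusted p = 0.0633 and 0.0517) and with the replicate block (0.0667 and 0.0725). Of the members, 1 was called by DESeq2 (Arg1, irradiated against vehicle) and 1 by limma-voom with quality weights (Nos2, R788 + anti-PDL1 against vehicle), and none under the other alternatives, the range of adjusted p over all alternatives being 0.034 to 0.865 for Arg1 and 0.00459 to 1 for Nos2 in those comparisons. DESeq2 gave no adjusted p for Mrc1 in any comparison or for Chil3 between the treated groups. The cause of these differences was not tested.

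The correlations between libraries did not settle whether the replicate numbers pair the tumors. Deviations from group means correlated at -0.05 to 0.23 for same-numbered libraries and -0.23 to 0.12 for others, and 5 of 9 libraries correlated best with a library of their own number. With the replicate block the counts were 0, 3 and 0 (unadjusted p-value under 0.05 for 1775, 1949 and 2789 genes), and the sign turned for Trem2 (-0.046) and Msr1 (-0.070) in R788 + anti-PDL1 against vehicle and for Nos2 (-0.45) and Mrc1 (-0.052) between the treated groups. Msr1 in irradiated tumors against vehicle was 0.011 with DESeq2 and 0.011 with RLE scaling. Library totals moved the median log2 difference of all genes to 0.13, -0.00087 and -0.14, but turned no member.

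On leaving out single libraries the sign of some log2 differences turned. For R788 + anti-PDL1 against vehicle the ranges were -1.2 to 0.039 for Arg1, -1.80 to 0.19 for Chil3, -0.20 to 0.56 for Trem2 and -0.30 to 0.46 for Msr1. For irradiated tumors against vehicle they were -0.59 to 1.43 for Mrc1, -1.21 to 3.32 for Cd163, -0.70 to 1.41 for Chil3, -0.86 to 0.18 for Trem2 and -0.57 to 0.28 for Msr1. Between the treated groups they were -0.29 to 0.67 for Nos2, -1.15 to 0.86 for Mrc1, -4.51 to 0.73 for Cd163, -0.083 to 2.41 for Chil3, -3.65 to 0.88 for Retnla and -0.66 to 0.28 for Msr1. Relative to Csf1r and Adgre1 alone, Mrc1 in irradiated tumors against vehicle was -0.60 instead of -0.18. With 3 tumors a group, 0 to 28 counts for Arg2, Chil3 and Il10 limit what can be said of them.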
